A study of Mus musculus with 6 samples.

Results

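Scavenger receptors were described in DC2.4, a mouse dendritic cell line, through 8 genes taken by symbol from the deposited count table of 54532 genes: Cd36, Msr1, Marco, Scarb1, Stab1, Olr1, Lrp1 and Axl. Each symbol had its own row, and 6 of the 8 had enough counts to be tested, among 12844 tested genes in all. The series set 3 libraries from cells given the empty pTT5 expression vector against 3 libraries from cells labelled as overexpressing Vdbp, the vitamin D-binding protein, from the same vector type. By the labels' protocol, both groups were split 48 h after they had been transfected and were then grown in selective medium, and it is not said whether a group was a pool of cells or a clone. No treatment other than transfection and selection is given for either group. The question named in the series is how dendritic cells respond to Vdbp.

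Scavenger receptors are cell surface proteins of unrelated structure that bind modified lipoproteins, polyanions, microbes and dying cells and carry them into the endosomes. Macrophages and immature dendritic cells use them to clear debris, to take up lipid and to sample antigen. Msr1 and Marco are collagen-like class A receptors, Cd36 and Scarb1 are class B receptors with a loop outside the membrane, Olr1 is a lectin-like receptor for oxidised LDL, and Stab1 is a large endocytic receptor with EGF and fasciclin domains. Lrp1 belongs to the LDL receptor family and takes up protease complexes and remnant lipoproteins, and Axl is a TAM receptor tyrosine kinase that recognises dying cells through its bridging ligand Gas6.

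The cells carried transcripts of 6 of these receptors and essentially none of Olr1 and Axl. Per length of the gene model, on the FPKM scale deposited by the authors, Lrp1 stood first with a mean of 102.2 FPKM over the 6 libraries, which is rank 476 among the tested genes. Marco followed with 32.6 FPKM, Scarb1 with 24.6, Cd36 with 19.7, Stab1 with 14.6 and Msr1 with 13.2. Lrp1 lay above Marco in every library (89.0 FPKM or more against 37.6 or less). The ranges of all later neighbours in this order overlapped: 23.9 to 37.6 FPKM for Marco, 21.5 to 29.5 for Scarb1, 13.5 to 26.1 for Cd36, 12.0 to 18.4 for Stab1 and 9.77 to 17.1 for Msr1. The order depends on the gene length: the table gives Scarb1 8500 bases, whereas its longest protein-coding transcript in GENCODE M21 has 2521. Dividing by the longest protein-coding transcript gave 121.6 for Lrp1, 83.1 for Scarb1, 32.6 for Marco, 23.1 for Msr1, 20.8 for Cd36 and 18.7 for Stab1. Lrp1 supplied 75.8% of all counts of the 8 genes, and the 8 together made up 0.216% to 0.287% of a library.

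**Figure D1:**
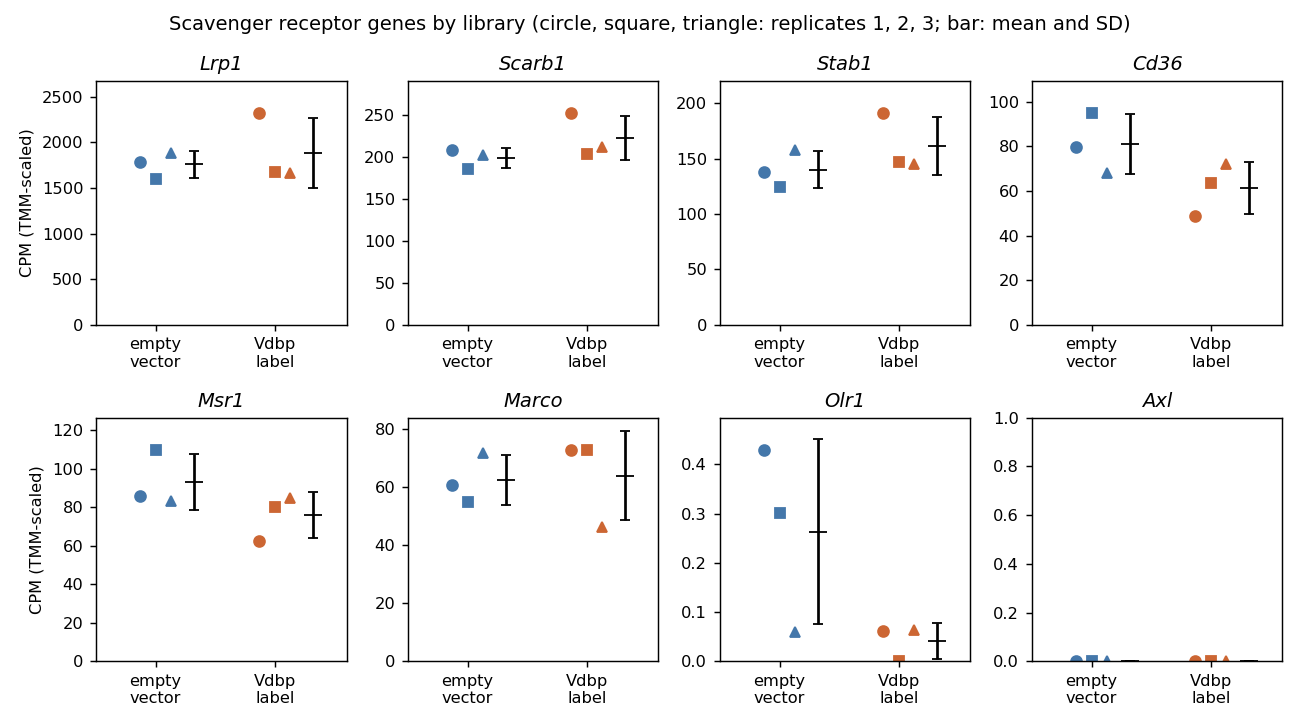
Level of each of the 8 genes in each library, in CPM (counts scaled to a common library size, with TMM factors), with replicates 1, 2 and 3 drawn as circle, square and triangle and the mean and SD beside them (n = 3 libraries a group). In the 6 tested genes the groups overlap; Vdbp replicate 1 is the highest library of Lrp1, Scarb1 and Stab1 and the lowest of Cd36 and Msr1, and Axl is at 0 in every library.

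The 6 libraries held 15563800 to 16710975 counts each. Gc, the mouse gene of the vitamin D-binding protein, had 0 counts in all 6 libraries, which allows up to 0.177 to 0.192 CPM (3 counts) per library, so the groups are named by their labels throughout. Of the markers used to check the cell type, all 3 pan-leukocyte and all 7 myeloid genes were tested, with summed levels of 1069 to 1119 CPM (empty vector) and 1080 to 1334 CPM (Vdbp label) for the former and 3265 to 3679 and 3054 to 3113 CPM for the latter. The summed myeloid markers were thus lower in all 3 Vdbp libraries, as were 5.61% of tested genes taken singly. Of the 7 myeloid genes 5 had estimates below 0 and 2 above, and Itgam, Adgre1 and Lyz2 each lay lower in all 3 Vdbp libraries. The pan-leukocyte gene Coro1a lay higher in all 3, as did 5.26% of tested genes. The part of these markers in the values of Cd36 and Msr1 below was not tested. Of 8 markers of conventional dendritic cells only Irf8 and Zbtb46 were tested. Flt3, Xcr1, Clec9a, Batf3, H2-Aa and H2-Ab1 had at most 6 counts in any library, so these defining markers were near 0 in cells labelled as dendritic. Of 7 macrophage markers 3 were tested, with sums of 1448 to 1486 CPM (empty vector) and 1381 to 1506 CPM (Vdbp label). Adgre1 was lower in all 3 Vdbp libraries, at 556 to 614 CPM against 660 to 690 CPM, and did not pass edgeR's test (adjusted p 0.781). Mertk, Cd163, Vsig4 and Timd4 were at or near 0. The summed markers of endothelium, fibroblasts, hepatocytes, adipocytes, T cells, B cells, neutrophils and epithelium each stayed at or below 3.90 CPM in every library.

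None of the 6 tested receptors passed the comparison of the groups. In edgeR's quasi-likelihood test with Benjamini-Hochberg adjustment over all 12844 tested genes, 0 of 6 had an adjusted p under 0.05, and the background was the same, 0% of tested genes. DESeq2 and limma-voom also called 0 of the receptors, against 0.0166% and 0% of the genes in those fits. At an unadjusted p under 0.05 there was 1 of 6 (Cd36, lower), against 5.35% of all tested genes (2.81% higher and 2.54% lower). In none of the 6 did the 3 Vdbp libraries lie all above or all below the empty-vector libraries, which was so for 10.9% of tested genes. The estimates were above 0 for 4 receptors and below 0 for 2, with a median log2 fold change of 0.07, beside −0.01 over all tested genes. With the correction for length and GC content described below, 3 were above 0 and 3 below, and the median was −0.02. For 4 of the 6 the 95% interval lay within 1.5-fold in either direction, against 70.7% of tested genes. For all 6 it lay within 2-fold, against 89.3%. Separate cultures are not stated for the libraries of a group, so a p-value or interval here reflects the spread between these samples, which may be technical. Gc had no counts in any library, so the intervals compare the groups as labelled and set no bound on an effect of Vdbp. In bulk RNA fewer expressing cells and less RNA per cell cannot be told apart.

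**Figure D2:**
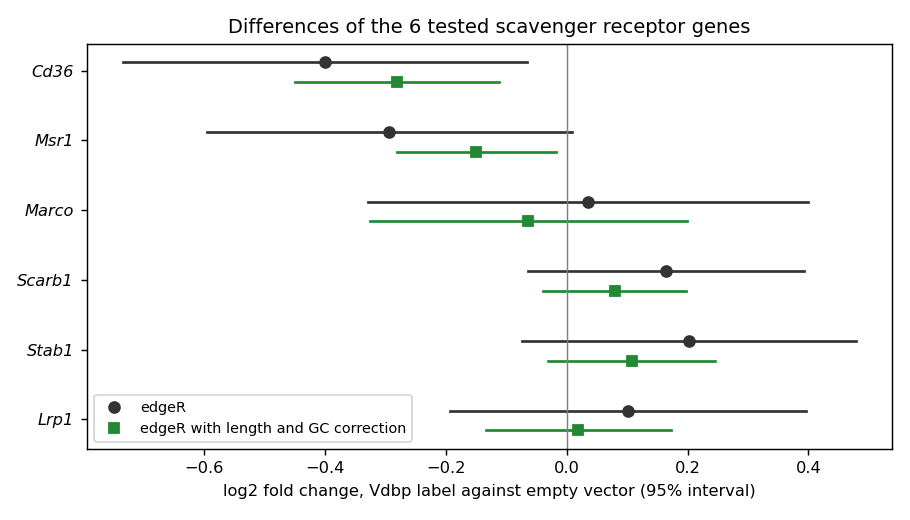
Log2 fold change of the libraries labelled Vdbp against empty vector for the 6 tested receptors (points) with 95% intervals (lines), from edgeR as counted and after removal of a trend on gene length and GC content. Cd36 is at −0.40 and −0.28 and Msr1 at −0.29 and −0.15, while Lrp1 goes from 0.10 to 0.02. The intervals after removal of the trend leave out the error of the fitted trend.

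Of the class B receptors, Cd36, which takes up long-chain fatty acids and oxidised LDL, had the largest estimated difference. Cd36 (ENSMUSG00000002944, chromosome 5, 17781690 to 17888801, minus strand) was at 79.7, 95.04 and 68.1 CPM in empty-vector replicates 1, 2 and 3 and at 48.7, 63.4 and 72.0 CPM in the libraries labelled Vdbp. Empty-vector replicate 2 was the highest library and Vdbp replicate 1 the lowest, and the groups overlapped because Vdbp replicate 3 lay above empty-vector replicate 3. The same libraries were at the ends of the share of counts from mitochondrial genes, 2.61% in empty-vector replicate 2 and 1.49% in Vdbp replicate 1 against 1.80% to 2.18% in the other 4, and the part of this share in the values of Cd36 and Msr1 was not tested. The means were 80.9 ± 13.5 and 61.4 ± 11.8 CPM (SD, n = 3 each), a fold of 0.758 (95% interval 0.601 to 0.956) and a log2 fold change of −0.40 (SE 0.15, edgeR adjusted p 0.781). Without Vdbp replicate 1 the log2 fold change was −0.25, and without both that library and empty-vector replicate 2 it was −0.13. These libraries were the ends of the range of Cd36, so leaving them out moves its estimate toward 0 by construction.

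Scarb1, the receptor SR-BI that exchanges cholesterol with HDL, leaned the other way. Scarb1 (ENSMUSG00000037936, chromosome 5, 125277087 to 125341094, minus strand) was at 209, 185 and 202 CPM with empty vector and at 253, 203 and 212 CPM with the Vdbp label. Vdbp replicate 1 stood above all other libraries, and the remaining pair of Vdbp libraries lay within the range or just above that of the empty-vector group. The means were 199 ± 12.0 and 223 ± 26.5 CPM (SD, n = 3 each), with a log2 fold change of 0.16 (95% interval −0.06 to 0.39; adjusted p 0.781 in edgeR). Without Vdbp replicate 1 the log2 fold change of Scarb1 was 0.07, but leaving out its highest library lowers the estimate by construction.

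Among the class A receptors, Msr1, the macrophage scavenger receptor for acetylated LDL, followed the pattern of Cd36. Msr1 (ENSMUSG00000025044, chromosome 8, 39581685 to 39642673, minus strand) was at 85.7, 110.0 and 83.4 CPM with empty vector and at 62.5, 80.3 and 85.0 CPM with the Vdbp label. Again empty-vector replicate 2 was highest and Vdbp replicate 1 lowest, and the other 4 libraries lay within 80.3 to 85.7 CPM. The means were 93.0 ± 14.7 and 75.9 ± 11.9 CPM (SD, n = 3 each), and the log2 fold change was −0.29 (95% interval −0.60 to 0.01; edgeR adjusted p 0.781). Without both extreme libraries it was −0.04, but leaving out the ends of the range of Msr1 moves its estimate toward 0 by construction.

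Marco, a receptor for bacteria and inhaled particles, showed no common direction. Marco (ENSMUSG00000026390, chromosome 1, 120474538 to 120505024, minus strand) was at 60.6, 54.8 and 71.5 CPM with empty vector and at 72.8, 72.6 and 46.1 CPM with the Vdbp label. Vdbp replicates 1 and 2 stood at the top of the 6 libraries and Vdbp replicate 3 at the bottom. The means were 62.3 ± 8.47 and 63.9 ± 15.4 CPM (SD, n = 3 each), which gave a log2 fold change of 0.04 (95% interval −0.33 to 0.40; edgeR adjusted p 0.953). Its spread within the groups, 0.30 log2 units, was the widest of the 6 receptors, beside a median of 0.17 over all tested genes. The sign of the Marco estimate turned with the correction for length and GC content (−0.06) and when any of empty-vector replicate 2, Vdbp replicate 1 or Vdbp replicate 2 was left out.

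The large endocytic receptors Stab1 and Lrp1 were highest in the same library. Stab1, stabilin-1, clears SPARC and modified LDL. Stab1 (ENSMUSG00000042286, chromosome 14, 31139013 to 31168641, minus strand) was at 138, 125 and 158 CPM with empty vector and at 191, 147 and 145 CPM with the Vdbp label. Only Vdbp replicate 1 exceeded the empty-vector range. The means were 140 ± 16.7 and 161 ± 26.2 CPM (SD, n = 3 each), and the estimated log2 fold change was 0.20 (95% interval −0.07 to 0.48; edgeR adjusted p 0.781). Without Vdbp replicate 1 it was 0.06, but leaving out the highest library of Stab1 lowers its estimate by construction. Over 112 bases Stab1 overlaps Nt5dc2 on the opposite strand, a gene with nearly as many counts (14785 and 14782 over the 6 libraries). Whether the counting used strand is not given in the sources used here, so reads in the overlap cannot be assigned.

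Lrp1 (ENSMUSG00000040249, chromosome 10, 127538161 to 127621148, minus strand) was at 1788, 1598 and 1886 CPM with empty vector and at 2324, 1672 and 1658 CPM with the Vdbp label. Vdbp replicate 1 was the highest of the 6 libraries, and Vdbp replicates 2 and 3 lay between empty-vector replicates 2 and 1. The means were 1757 ± 146 and 1885 ± 380 CPM (SD, n = 3 each), with an estimated log2 fold change of 0.10 (95% interval −0.19 to 0.40; edgeR adjusted p 0.830). The direction rested on Vdbp replicate 1: without it the log2 fold change of Lrp1 was −0.07. Leaving out its highest library lowers the estimate by construction.

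Olr1, the receptor LOX-1 of endothelium and activated macrophages, was close to the limit of detection. Olr1 (ENSMUSG00000030162, chromosome 6, 129485244 to 129507165, minus strand) had 7, 5 and 1 counts in the empty-vector libraries and 1, 0 and 1 counts in the libraries labelled Vdbp. The 13 and 2 counts in all correspond to a ratio of 0.158, with a 95% interval of 0.0173 to 0.698 from an exact binomial calculation that covers counting error only. Empty-vector replicate 3 did not differ from the Vdbp libraries by more than a count, and 2 libraries supplied nearly all counts of the gene. Olr1 did not pass the filter on low counts, and in the edgeR fit without that filter its adjusted p was 0.787 (0.369% of genes passed in that fit).

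Axl was not detected. Axl (ENSMUSG00000002602, chromosome 7, 25757273 to 25788705, minus strand) had 0 counts in each of the 6 libraries, which allows up to 0.177 to 0.192 CPM per library. The other TAM receptors were also near 0: Tyro3 had 1 count, in empty-vector replicate 2, and Mertk had 0, 4 and 1 counts in the empty-vector group against 3, 1 and 2 in the Vdbp group. Of the bridging ligands, Gas6 had 5 counts, all in empty-vector replicate 3, and Pros1 had 0 in every library. Timd4 and Havcr1, receptors that bind phosphatidylserine directly, had 0 counts in every library. Mfge8, which bridges phosphatidylserine to integrins, was abundant, at 458 ± 26.1 and 436 ± 73.3 CPM (SD, n = 3 each).

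The receptors fell into sets of low and high GC content, and their estimated differences lay on the same sides. The longest protein-coding transcripts of Cd36 and Msr1 were 38.4% GC each, at percentiles 2.21 and 2.18 of the tested genes, where the median was 49.9%. Marco had 54.5%, Scarb1 56.2%, Stab1 57.3% and Lrp1 57.9%, at percentiles 74.5, 82.8, 87.7 and 89.8. Coding values are from the transcript with the longest coding sequence, which for Msr1 is another one (1424 bases, 45.6% GC). The 38.4% of Msr1 is from a transcript of 3636 bases and was used in the correction below, and no fit used the 45.6%. The contrast was also present in the coding sequence, at 41.5% for Cd36 and 46.4% for Msr1. There Marco had 55.7%, Scarb1 54.9%, Stab1 57.4% and Lrp1 58.0%. At the third codon position Cd36 had 39.6% and Msr1 41.3%, against 62.9% for Stab1, 71.8% for Lrp1 and 74.1% for Scarb1. Marco, at 48.8%, lay nearer to Cd36 and Msr1 at this position. One coding exon window of 75 bases per gene, chosen as the first whose GC content was nearest to that of the whole coding sequence, shows the difference in composition. The sequences are from GENCODE M21 transcripts (GRCm38), read 5′ to 3′ along the transcript (minus strand in all 4), with G and C in capitals.
Cd36: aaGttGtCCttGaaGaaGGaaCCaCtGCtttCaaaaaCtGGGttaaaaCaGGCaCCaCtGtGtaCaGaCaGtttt
Msr1: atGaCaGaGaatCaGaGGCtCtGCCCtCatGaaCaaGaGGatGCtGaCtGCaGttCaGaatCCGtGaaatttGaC
Stab1: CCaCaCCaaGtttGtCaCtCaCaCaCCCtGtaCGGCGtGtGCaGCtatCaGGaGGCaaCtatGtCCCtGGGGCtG
Lrp1: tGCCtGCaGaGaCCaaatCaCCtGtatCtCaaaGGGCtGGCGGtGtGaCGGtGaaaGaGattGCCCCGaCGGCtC
The Cd36 window lies in exon 4 at chr5:17820525-17820599 and holds 31 G or C. The Msr1 window lies in exon 2 at chr8:39632751-39632825 and holds 35. The Stab1 window (exon 2, chr14:31163837-31163911) and the Lrp1 window (exon 2, chr10:127612677-127612751) hold 43 each.

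Libraries differed in how counts ran with GC content across all tested genes. For each library the distance of each gene from its 6-library mean was set against GC content, across genes, which are not replicates. Spearman's rho was −0.08, −0.63 and 0.06 for the empty-vector libraries 1 to 3, and for the Vdbp libraries 1 to 3 it was 0.74, −0.02 and −0.40. Empty-vector replicate 2 and Vdbp replicate 1 thus had the strongest trends, in opposite directions. The same libraries set the ends of the range of Cd36, Msr1, Scarb1, Stab1 and Lrp1. The log2 fold change between the groups ran with GC content across genes with a rho of 0.53, and this was 0.03 once each library had been corrected with a smooth curve of its counts on length and GC content. The curves were fitted to these same libraries, so a value near 0 follows by construction.

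**Figure D3:**
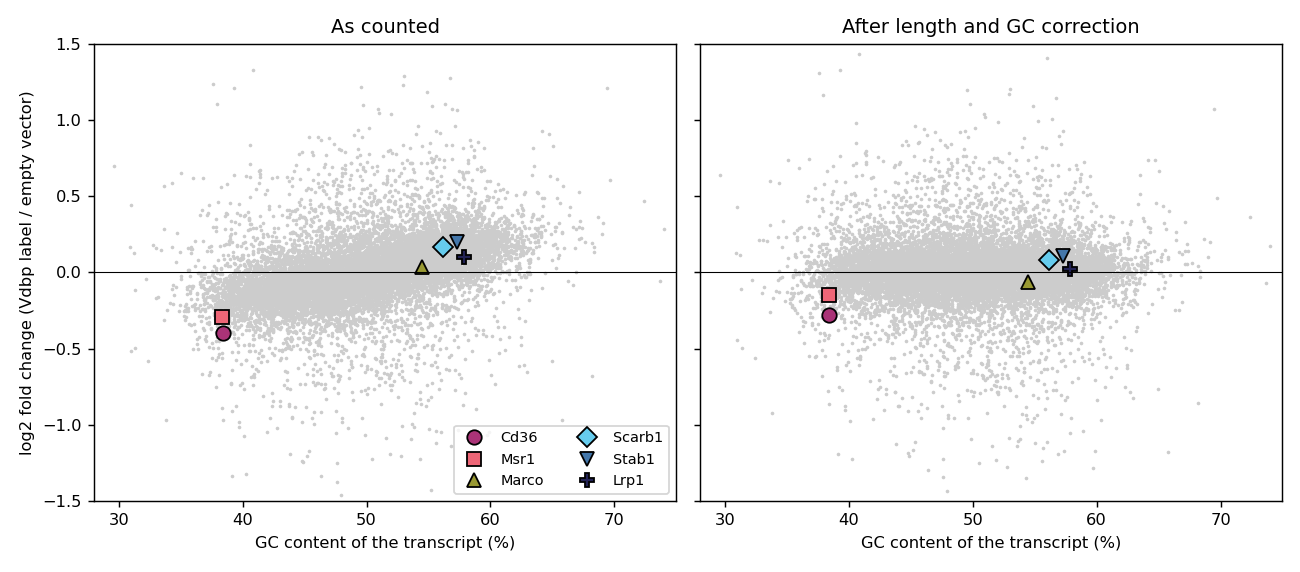
Log2 fold change of the libraries labelled Vdbp against empty vector (vertical axis) by the GC content of the longest protein-coding transcript (horizontal axis, in %) for all tested genes with a GC value (grey, 12834 genes, of which 16 in each panel lie outside the axes) and the 6 receptors (coloured), as counted on the left and after the length and GC correction on the right. Cd36 and Msr1 sit at the low GC end at −0.40 and −0.29 and move to −0.28 and −0.15.

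With the correction 0 of 6 receptors passed, against 0.0156% of tested genes, and Cd36 again had the largest estimate. Its log2 fold change was −0.28 (95% interval −0.45 to −0.11; unadjusted p 0.00334 and adjusted p 0.451 in edgeR). That of Msr1 was −0.15 (−0.28 to −0.02; adjusted p 0.516), of Stab1 0.11 (−0.03 to 0.25; adjusted p 0.645), of Scarb1 0.08 (−0.04 to 0.20; adjusted p 0.710) and of Lrp1 0.02 (−0.13 to 0.17; adjusted p 0.960). In the corrected values Cd36 was 0.27, 0.19 and −0.04 log2 units from its mean under empty vector and −0.17, −0.14 and −0.11 in the Vdbp libraries. Msr1 was at 0.10, 0.13 and −0.01 and at −0.05, −0.04 and −0.13. In these 2 genes every Vdbp library then lay below every empty-vector library. After the correction 13.7% of tested genes separated in either direction and 7.09% in this direction, against 10.9% in either direction as counted. At an unadjusted p under 0.05 the corrected fit had 2 of 6 receptors, both lower, against 9.10% of tested genes (5.35% as counted). The fitted trend entered edgeR as if known, so the corrected intervals and p-values leave out its error. The corrected fit without empty-vector replicate 3 called Cd36 (log2 fold change −0.37, edgeR adjusted p 0.0157), and that fit called 191 genes in all, against 2 with all libraries. For Scarb1 the correction depended on the transcript used for GC content: with the longest transcript of any type, which retains introns, the log2 fold change was 0.21 instead of 0.08.

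**Figure D4:**
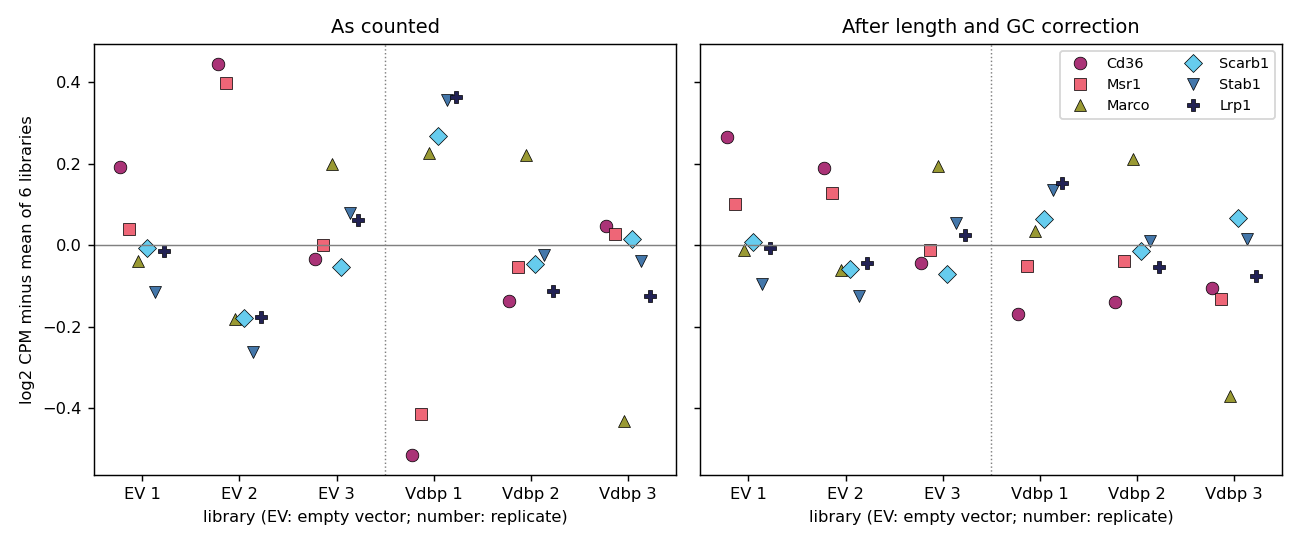
Distance of each of the 6 tested receptors from its own mean over the 6 libraries (log2 CPM, vertical axis) in each library (horizontal axis), as counted on the left and after the length and GC correction on the right. As counted, Cd36 and Msr1 are at 0.45 and 0.40 in empty-vector replicate 2 and at −0.52 and −0.41 in Vdbp replicate 1, while Lrp1, Scarb1 and Stab1 are on the other side of 0 in both.

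Across the 6 libraries the low-GC and high-GC receptors mirrored each other, which is given as a description without a test. Pearson's r of log2 CPM was 0.97 between Cd36 and Msr1, and 0.88 to 0.92 among Scarb1, Stab1 and Lrp1. Between the sets r ran from −0.96 (Cd36 and Stab1) to −0.82 (Cd36 and Lrp1). After the correction r was 0.88 between Cd36 and Msr1, and 0.25 to 0.66 among Scarb1, Stab1 and Lrp1. Stab1 stayed opposed to both low-GC receptors, with r of −0.88 to Cd36 and −0.75 to Msr1. For Scarb1 r was −0.41 to Cd36 and −0.61 to Msr1, and for Lrp1 it was −0.28 and −0.06. Marco stood apart from both sets, with r between −0.60 and 0.59 as counted. The genes whose log2 CPM followed that of Lrp1 most closely were Clip2 (r = 0.997), Agrn (r = 0.996) and Mknk2 (r = 0.995), with GC contents of 60.3%, 57.4% and 60.3%, and 847 tested genes had an r above 0.9 with Lrp1.

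Genes that act with these receptors were read from the same fit in 8 lists, some of which share genes, and no member of any list passed edgeR's test (0% of tested genes did). Of 14 other scavenger receptors 9 were tested, and their median log2 fold change was −0.05. Cd68, a lysosomal glycoprotein of phagocytes, averaged 1245 ± 111 and 1204 ± 166 CPM, and Colec12, a class A receptor with a lectin domain and 43.1% GC, 192 ± 17.2 and 162 ± 22.6 CPM (log2 fold change −0.24; SD, n = 3 each). Cd163, a haemoglobin scavenger receptor, had 1 count in all and Scara5 had none. The groups did not overlap for Scarf1 and Megf10, which were named after their values were seen and are low (at most 2.85 CPM as a group mean), both with higher levels under the Vdbp label, as in 5.26% of tested genes.

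Of 12 members of the LDL receptor family list 10 were tested, and their median log2 fold change was −0.04. Lrpap1, the chaperone that keeps Lrp1 free of ligand on its way to the surface, averaged 400 ± 20.3 and 376 ± 44.9 CPM, and Sorl1, a sorting receptor of the family, 355 ± 4.42 and 354 ± 26.9 CPM (SD, n = 3 each). Lrp12 had the smallest p of the list (log2 fold change −0.16, edgeR adjusted p 0.781). Of 19 genes of apoptotic cell uptake 10 were tested, with a median of −0.08, and of these Dock1, an activator of Rac1, had a log2 fold change of −0.15 and Rac1 itself −0.0037. In the list of shedding and sorting all 12 were tested, with a median of −0.09. There the clathrin heavy chain Cltc was at −0.17 and the endocytic adaptor Dab2 at −0.27 (407 ± 51.3 and 338 ± 19.9 CPM, edgeR adjusted p 0.781).

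Of the 14 genes that handle lipid after uptake, all were tested and 11 had estimates below 0, and the median log2 fold change was −0.08. Abca1, which exports cholesterol to lipid-poor apolipoproteins, was at 181, 205 and 182 CPM with empty vector and at 142, 169 and 163 CPM with the Vdbp label. All 3 Vdbp libraries of Abca1 lay below the empty-vector libraries, as they did for 5.61% of tested genes, and its log2 fold change was −0.26 (95% interval −0.48 to −0.04; edgeR adjusted p 0.781). The lipid droplet protein Plin2 was at −0.05 and the lysosomal cholesterol carrier Npc2 at 0.06. Of 13 regulators 12 had estimates above 0, with a median of 0.13, beside 48.7% of all tested genes above 0. Spi1, the myeloid factor PU.1, averaged 291 ± 16.5 and 336 ± 45.0 CPM, and Cebpb 455 ± 122 and 559 ± 66.2 CPM (SD, n = 3 each). The median GC content was 57.0% in the regulator list and 48.3% in the lipid list, and with the length and GC correction their medians were 0.02 and −0.0038. The correction removes a trend fitted to these same libraries, so the shift of the medians is no test. The part of GC content in these differences was not tested.

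Partners and ligands of the receptors gave no call either. Of 14 signalling partners 13 were tested, and their median log2 fold change was 0.04. Cd9 and Itgb1, membrane proteins found with Cd36, were at 0.04 and −0.09, and Tlr6, which pairs with Cd36 in sensing of lipids, was at −0.29 (21.3 and 17.4 CPM, edgeR adjusted p 0.781). Of 13 ligands made by cells 9 were tested, with a median of −0.11. The chaperones Calr and Hsp90b1 were at 0.03 and −0.15, and Thbs1, a ligand of Cd36 and Lrp1, at −0.49 (edgeR adjusted p 0.781) and −0.47 after the correction.

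**Figure D5:**
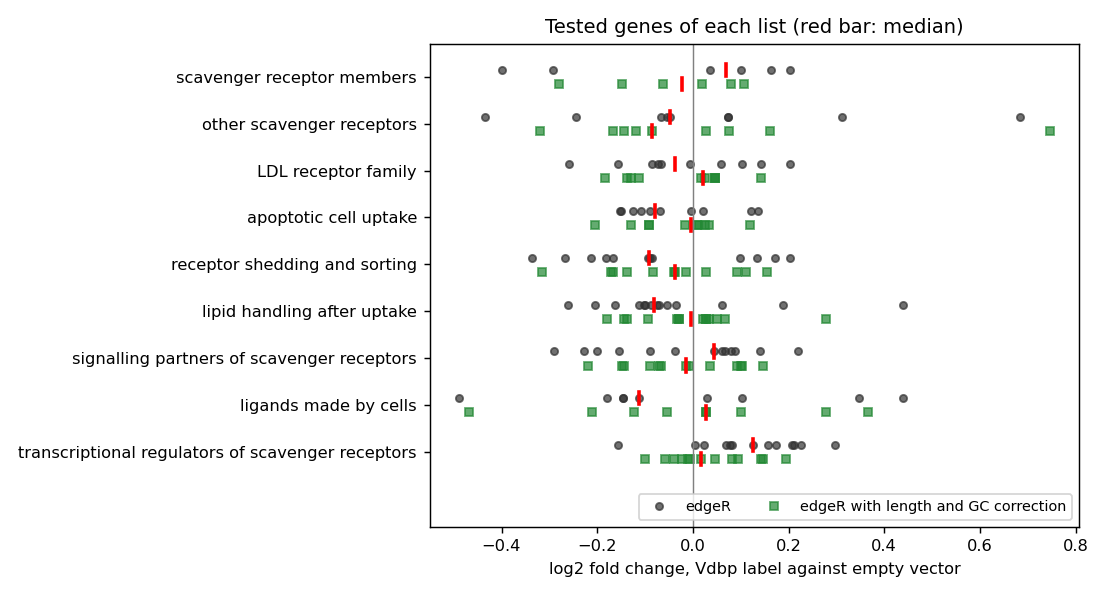
Log2 fold change of the libraries labelled Vdbp against empty vector (horizontal axis) for each tested gene of the receptors and of the 8 related lists (rows), as counted (black circles) and after the length and GC correction (green squares), with list medians as red bars. As counted, the median of the regulators is the highest at 0.13 and that of the ligands the lowest at −0.11.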

How the data were processed

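Total RNA was extracted with TRIzol and sequenced as mRNA libraries, per the labels' protocols. The deposited counts are unnormalised whole numbers per Ensembl gene, and the deposited FPKM values were made by the authors from the same libraries. The submitters' processing notes list HISAT2 and StringTie. For the counting tool, build and annotation: not given in the sources used here. Of the identifiers 99.8% were in GENCODE M21 (GRCm38), 98.3% of these with the same start and end, all 8 receptors among them.

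The count test was edgeR 4.0.16 (R 4.3.3): filterByExpr (minimum count 10, minimum total 15, minimum proportion 0.7), TMM scaling, and a quasi-likelihood test with group as the only term, two-sided, with Benjamini-Hochberg adjustment over 12844 genes and a threshold of 0.05. The table had no row without a gene. A count of 0 was read as up to 3 counts. These floors cover counting error only. The correction fitted a smooth trend on gene length and on the GC content of the longest protein-coding transcript in each library (mgcv 1.9.3) and entered edgeR as an offset. Alternatives were other scalings, DESeq2 1.42.0, limma-voom (limma 3.58.1), other filters, limma on FPKM (log2, pseudocount 1 or 0.1) (at least 0.5 FPKM in 3 libraries), the replicate number as a block, and leaving out libraries. The test was checked on simulated counts drawn without a trend on GC content, so the check does not cover the trends seen here. The receptors and lists were chosen with earlier results of these data known. By rule the text names the 8 receptors and, per list, the 2 genes with the highest FPKM, that with the smallest p and any that passed, and the 3 genes most like the receptor with the highest FPKM. Outside the rule, and after their values were seen, it also names Scarf1, Megf10, Cd163, Scara5, Tyro3, Mertk, Gas6, Pros1, Timd4, Havcr1 and the overlapping gene Nt5dc2. Markers of cell types came from separate lists. The combinations of the correction with leaving out a library, and the GC content of the longest transcript of any type, were added after seeing the data.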

Additional observations from a re-analysis of the deposited data

How the results depend on the processing

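Over 27 alternative fits per gene, which reuse these 6 libraries, Cd36 and Msr1 stayed lower and Scarb1 higher in all. The estimate of Scarb1 was as low as 0.0122, in the fit without both empty-vector replicate 2 and Vdbp replicate 1. No receptor passed in any fit except Cd36 in the corrected fit without empty-vector replicate 3. Over all tested genes the count of calls, 0 with all libraries, was 4 with DESeq2, 89 without a filter on low counts, 4 with limma on log2(FPKM + 1) without a filter, 2 with the length and GC correction (also 2 with the GC content of the longest transcript of any type), and 2 without both empty-vector replicate 2 and Vdbp replicate 1. Leaving out each library in turn gave 0 to 22 calls, the most without empty-vector replicate 3, and with the correction 0 to 191, with 0 to 1 receptor called. The median log2 fold change of the receptors was −0.022 with the correction, −0.03 with the correction and replicate block, −0.083 without both libraries at the ends of the GC trend, −0.07 to 0.19 without single libraries, and with the correction −0.0704 (without Vdbp replicate 1) to 0.066.

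Marco turned to −0.0632 with the correction (−0.0631 with the GC content of the longest transcript of any type), to −0.0766 with the correction and replicate block together and to −0.16 without both end libraries. Without single libraries it ran from −0.066 to 0.22. With the correction it was −0.0901 and −0.111 without empty-vector replicates 1 and 2, and −0.0874 and −0.19 without Vdbp replicates 1 and 2. Lrp1 was −0.14 without both end libraries and ran from −0.075 to 0.19 without single libraries. With the correction Lrp1 was −7e-04 when empty-vector replicate 2 was left out and −0.0535 when Vdbp replicate 1 was. Stab1 was −0.0208 without both end libraries and ran from 0.063 to 0.297 without single libraries. The cause of these turns was not tested. The labels do not say that a replicate number marks a shared culture or day, so the numbers were not treated as pairs. Correlations of deviations across genes were 0.14, 0.03 and −0.27 for same-numbered libraries of the groups. Differently numbered libraries ranged more widely, from −0.34 to 0.35, so these values do not decide whether the numbers mark pairs. With the replicate block 0 genes and 0 receptors were called, Cd36 was at −0.40, and the receptors' median was 0.05. No fit with a filter could test Olr1 and Axl, and whether deeper sequencing would reach them was not tested.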
